A study of Mus musculus and Homo sapiens with 23 samples.

Results

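The genes of the unfolded protein response and the heat shock response were followed in BV2, a mouse microglial line made by immortalisation; microglia are the macrophages that reside in the brain. The set comprised 35 genes chosen by their known function, with earlier results of these data known. All 35 were found, by symbol, among the 21608 genes of the RNA tables. RNA had been sequenced from 1 library of BV2 cells stimulated with lipopolysaccharide (LPS), a component of the outer membrane of Gram-negative bacteria, for 3 h, and from 1 library of unstimulated BV2 cells. Both libraries came from the same line, no genetic change is given for either, and the sources used here do not give the dose of LPS or say whether the cultures were grown in parallel. The other 21 of the 23 samples listed are chromatin immunoprecipitation or input samples and were not analysed here.

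Proteins that enter the endoplasmic reticulum (ER) are folded there by chaperones, J proteins and disulfide isomerases, and those that fail are pulled back to the cytosol and degraded (ER-associated degradation, ERAD). When unfolded protein builds up, 3 transducers in the ER membrane respond: IRE1 (gene Ern1) splices the mRNA of the transcription factor XBP1, ATF6 is cut to release a transcription factor, and PERK (gene Eif2ak3) phosphorylates the initiation factor eIF2, which slows translation while favouring that of ATF4. ATF6 and XBP1 drive chaperone and ERAD genes, ATF4 drives amino acid supply and, through CHOP (gene Ddit3), genes linked to cell death. The heat shock response is the cytosolic counterpart, driven by HSF1. In macrophages, stimulation through Toll-like receptors is known to engage parts of the ER pathway and to hold back others. The 35 genes were taken as 4 transducers (with Xbp1), 18 ER chaperone and ERAD genes, 6 genes of the ATF4 and CHOP arm and 7 heat shock genes.

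Levels are FPKM (fragments per kilobase of transcript for a fixed number of mapped fragments), and the bracketed range after a level is the authors' deposited 95% interval, which covers counting and the assignment of fragments within 1 library. With 1 library per condition there is no replicate check and no test, so each difference compares these libraries. Change denotes the difference in log2(FPKM + 1), LPS minus unstimulated, and at low levels the added 1 makes changes look smaller than they are. A gene was called higher or lower where its change was at least 1 in size (2-fold on this scale), and it was recorded separately whether its deposited intervals were apart. Calls were counted among the 10040 genes that reached 1 FPKM in at least 1 library. In RNA from a whole culture, fewer cells that express a gene and less RNA per cell cannot be told apart.

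All 5 genes listed as a check of the LPS response were higher in the LPS library, by 5.88 (Tnf) to 10.10 (Cxcl10) on the log2 scale. Of 11 measured myeloid and microglial markers 10 were counted, with Tyrobp, a signalling adaptor, at 3064 FPKM in the LPS library and 4128 FPKM in the unstimulated library, and the microglial receptor gene Cx3cr1 was under 1 FPKM in each. Intervals of these 10 were apart in the higher direction for 2 and in the lower direction for 7, and the called one, named after its value was seen, was the myeloid transcription factor gene Spi1, at 707 FPKM in the LPS library and 217 FPKM in the unstimulated library. None of the 20 listed markers of neurons, astrocytes, oligodendrocytes, fibroblasts and endothelium, or lymphocytes exceeded 0.394 FPKM in the LPS library or 0.457 FPKM in the unstimulated library. Of 3 plasma cell markers Sdc1 alone was counted, at 8.43 FPKM in the LPS library and 7.55 FPKM in the unstimulated library. The fragments implied by the deposited intervals summed to 16931602 in the LPS library and 13801435 in the unstimulated library.

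Differences past the size rule included genes that set and relay the phosphorylation of eIF2. Ppp1r15a, which encodes GADD34, the phosphatase subunit that reverses the phosphorylation of eIF2, was 6.66 times as high in the LPS library as in the unstimulated library. Eif2ak3, the gene of the kinase PERK that makes that phosphorylation, was at 0.172 times its unstimulated level, and Ddit3 was at 0.294 times. Eif2ak3 was at 0.626 FPKM in the LPS library and was not called with a pseudocount of 5. The other genes past the rule were Dnajb9 (-1.56), Dnajc3 (-1.07) and Pdia4 (-1.06), called lower, and Syvn1 (1.02), called higher. The bulk of the set moved little: 32 of the 35 genes were counted, and their median change was -0.23, beside -0.24 over all 10040 counted genes. The size rule called 2 of the 32 higher (6.25%, against 8.55% of all counted genes) and 5 lower (15.6%, against 12.5%), shares near the background. Deposited intervals were apart for 9 in the higher direction (28.1%, against 25.1%) and for 19 in the lower direction (59.4%, against 48.4%), and overlapped for 4. Chac1, Hspa1a and Hspa1b were below 1 FPKM in each library and are described apart. The 35 genes together held 0.763% of the summed FPKM of the LPS library and 0.794% of that of the unstimulated library.

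**Figure D1:**
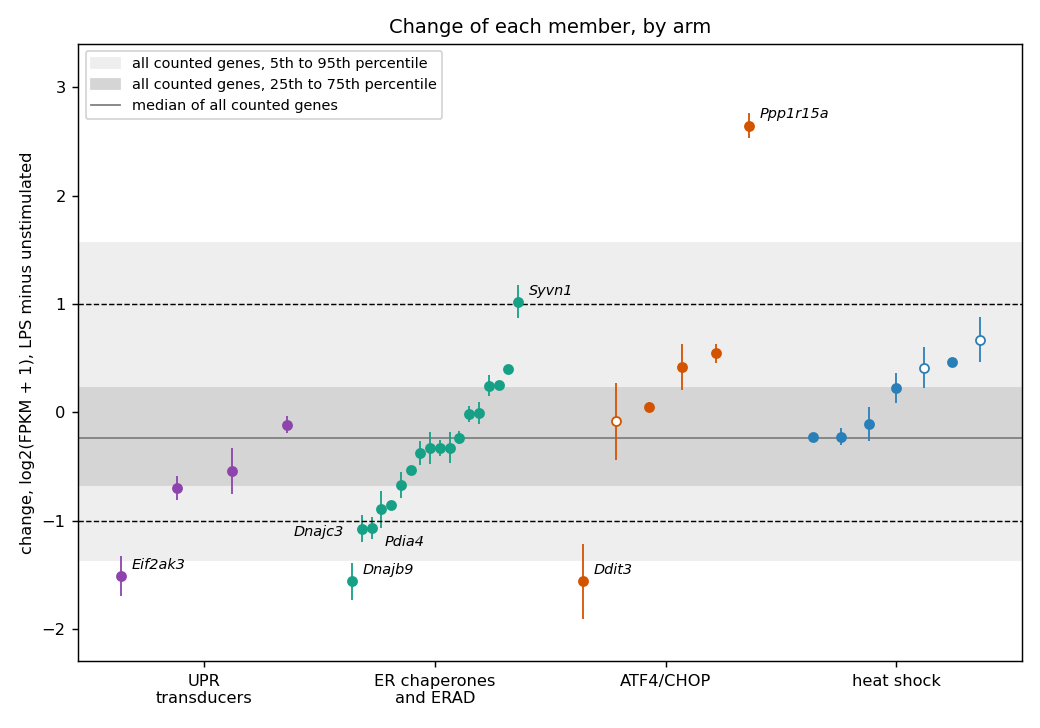
Change of each of the 35 genes, log2(FPKM + 1) of the LPS library minus the unstimulated library, by arm; bars are the half-width carried over from the deposited intervals of the 2 libraries, open points are the 3 genes below 1 FPKM in each library, and dashed lines mark the size rule at 1 and -1. Ppp1r15a (2.65) and Syvn1 (1.02) lie above the upper line and 5 genes lie below the lower one; 4 genes (Ppp1r15a, Eif2ak3, Dnajb9, Ddit3) lie outside the light band, which spans the 5th to the 95th percentile of all counted genes.

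All 4 transducer genes were lower in the LPS library, with their intervals apart and by very different amounts, although Xbp1 turned higher after median scaling. Over all counted genes intervals were apart in the lower direction for 48.4%. Eif2ak3 (mm9 chromosome 6, 70794521 to 70855234) was at 0.626 FPKM (0.467 to 0.785) in the LPS library, against 3.64 FPKM (3.24 to 4.03) in the unstimulated library. That is a ratio of 0.172 (0.131 to 0.227) and a change of -1.51. Of all counted genes 3.61% had a lower change, and a pseudocount of 5 brought Eif2ak3 inside the size rule (-0.62), while a filter at 5 FPKM left it uncounted. Atf6, the gene of the transcription factor that is cut free in the Golgi, was at 4.75 FPKM (4.42 to 5.09) in the LPS library and 8.34 FPKM (7.88 to 8.80) in the unstimulated library, a ratio of 0.570. Ern1, which encodes the kinase and endonuclease IRE1, was at 1.14 FPKM (0.909 to 1.37) in the LPS library and 2.11 FPKM (1.79 to 2.43) in the unstimulated library, a ratio of 0.539. Neither of these passed the size rule. Xbp1, the transcription factor gene whose mRNA IRE1 splices, was much more abundant, at 67.5 FPKM (64.7 to 70.2) in the LPS library and 73.1 FPKM (70.2 to 76.0) in the unstimulated library. Its change of -0.11 was above that of 57.7% of counted genes and was 0.17 after median scaling. The tables hold Xbp1 as 1 row, so its spliced and unspliced forms were not told apart. The median change of the 4 genes was -0.62.

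**Figure D2:**
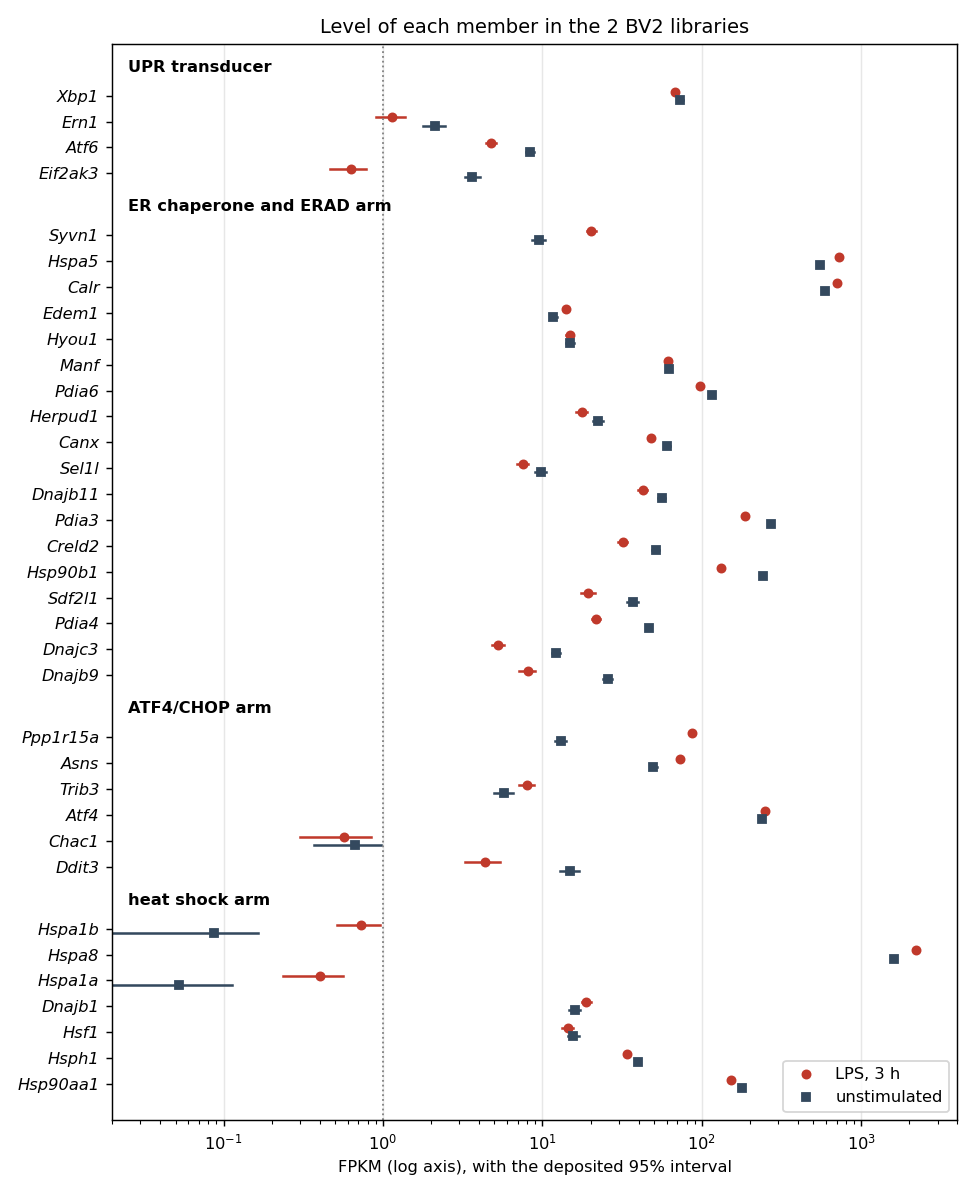
FPKM of each of the 35 genes on a log axis in the LPS library (red circles) and the unstimulated library (dark squares), with deposited 95% intervals and a dotted line at 1 FPKM; intervals that reach below 0.02 FPKM are drawn to the edge of the plot. Levels run from below 1 FPKM (Chac1, Hspa1a, Hspa1b) to 2202 FPKM in the LPS library and 1591 FPKM in the unstimulated library (Hspa8), and the squares lie right of the circles for most ER chaperone genes.

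Genes of ER folding and degradation went in different directions. Of the 18, all counted, 1 was called higher (Syvn1; 5.56%, against 8.55% of all counted genes) and 3 lower (Dnajb9, Dnajc3, Pdia4; 16.7%, against 12.5%). Intervals were apart in the higher direction for 4 (22.2%, against 25.1%) and in the lower direction for 12 (66.7%, against 48.4%), and overlapped for 2. The median change was -0.33, and changes ran from -1.56 to 1.02. Because the most abundant members were among those with higher values, the summed FPKM of the 18 was nearly level, at 2155 in the LPS library and 2183 in the unstimulated library. The summed FPKM of all genes was 664921 in the LPS library and 558826 in the unstimulated library. As a share of it, the 18 held 0.324% in the LPS library and 0.391% in the unstimulated library.

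Among the chaperones, Hspa5, which encodes BiP, the HSP70 of the ER lumen, was at 721 FPKM (713 to 729) in the LPS library and 547 FPKM (540 to 554) in the unstimulated library, a ratio of 1.32 (1.296 to 1.34). Hsp90b1, the HSP90 of the ER, went the other way, at 132 FPKM (129 to 135) in the LPS library and 240.2 FPKM (236 to 244) in the unstimulated library, a ratio of 0.549 (0.534 to 0.565) and a change of -0.86. The change of Hspa5 was 0.40 on the deposited FPKM and -0.0034 after quantile normalisation, whereas Hsp90b1 was called lower on the TPM scale (-1.11) and under quantile normalisation (-1.15). Hyou1, a nucleotide exchange factor for BiP, had overlapping intervals, at 14.8 FPKM in the LPS library and 14.9 FPKM in the unstimulated library. Sdf2l1, which keeps a J protein and its substrates soluble in the ER, was at 19.3 FPKM (17.4 to 21.2) in the LPS library and 36.8 FPKM (34.0 to 39.5) in the unstimulated library. Its change of -0.90 was, with that of Hsp90b1, the nearest to the size rule among the genes that did not pass it, and it passed after rescaling to TPM (-1.16).

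The 3 ER J proteins of the set, which recruit substrates to BiP and stimulate its ATPase, were all lower with intervals apart. Of all counted genes 48.4% had intervals apart in that direction. Among ER J proteins outside the set, Dnajc1 was at 8.04 FPKM in the LPS library and 7.08 FPKM in the unstimulated library, with overlapping intervals. Dnajc10 was at 6.96 FPKM in the LPS library and 9.81 FPKM in the unstimulated library, and Sec63 at 5.93 FPKM in the LPS library and 10.1 FPKM in the unstimulated library, each with intervals apart. These genes, the isomerases P4hb and Pdia5, and the related genes Txndc5, Txndc11, Txndc12 and Tmx1 are named after their values were seen. Dnajb9 (ERdj4; mm9 chromosome 12, 45306884 to 45311055) was at 8.06 FPKM (7.15 to 8.98) in the LPS library, against 25.8 FPKM (24.1 to 27.4) in the unstimulated library, a ratio of 0.313 (0.275 to 0.357) and a change of -1.56. It was called lower in each of the 9 alternatives run, with changes of -1.84 to -1.24. Dnajc3 (also known as p58IPK, an inhibitor of PERK; mm9 chromosome 14, 119337154 to 119380924) was at 5.27 FPKM (4.84 to 5.70) in the LPS library and 12.2 FPKM (11.5 to 12.9) in the unstimulated library, a ratio of 0.432 (0.392 to 0.476). Its change of -1.07 was near the rule, and it was not called with a pseudocount of 5 (-0.74), with median scaling (-0.83) or with quantile normalisation (-0.90). Dnajb11 (ERdj3) was at 42.7 FPKM in the LPS library and 55.8 FPKM in the unstimulated library, a ratio of 0.766.

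The 3 disulfide isomerases of the set, which form and rearrange disulfide bonds, were lower, by less in Pdia3 than in Pdia4 and by less still in Pdia6, which turned higher after median scaling. Pdia4 (mm9 chromosome 6, 47746140 to 47763511) was at 21.6 FPKM (20.3 to 22.9) in the LPS library and 46.3 FPKM (44.3 to 48.2) in the unstimulated library, a ratio of 0.467 (0.434 to 0.502) and a change of -1.06. It was not called with a pseudocount of 5 (-0.95) or after median scaling (-0.78). Its locus shares 77 bases with the microRNA gene Mir704, whose row was listed at 0 FPKM in the LPS library and 91.9 FPKM in the unstimulated library. Pdia3, which works with the lectin chaperones, was at 187 FPKM in the LPS library and 271 FPKM in the unstimulated library, and Pdia6 at 97.9 FPKM in the LPS library and 115 FPKM in the unstimulated library. Their ratios were 0.688 and 0.848, and the sign of Pdia6 turned to 0.05 after median scaling. Isomerase genes outside the set included ones with higher values: P4hb was at 266.5 FPKM in the LPS library and 254.5 FPKM in the unstimulated library, and Pdia5 at 17.1 FPKM in the LPS library and 13.7 FPKM in the unstimulated library, each with intervals apart. Related ER folding genes outside the set were lower with intervals apart: Txndc5 (ratio 0.857), Txndc11 (0.717), Txndc12 (0.877) and Tmx1 (0.699). Of all counted genes, 25.1% had intervals apart in the higher direction and 48.4% in the lower direction. The changes of Txndc5 (-0.22) and Txndc12 (-0.18) were above the median of all counted genes (-0.24). Of the lectin chaperones that hold glycoproteins during folding, the soluble Calr was at 705 FPKM (697 to 714) in the LPS library and 591 FPKM (583 to 598) in the unstimulated library, a ratio of 1.19 (1.17 to 1.22), with a change of -0.18 after quantile normalisation. The membrane-bound Canx had a ratio of 0.793 (0.752 to 0.837). The secreted stress proteins also differed from each other: Manf, a trophic factor, had overlapping intervals at 61.1 FPKM in the LPS library and 61.8 FPKM in the unstimulated library, whereas Creld2 was at 31.8 FPKM (29.6 to 34.0) in the LPS library and 51.2 FPKM (48.4 to 54.0) in the unstimulated library.

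The gene of this arm that passed the size rule in the higher direction, Syvn1, was an ERAD gene. Syvn1 encodes HRD1, the ubiquitin ligase in the ER membrane (mm9 chromosome 19, 6046576 to 6053718). It was at 20.3 FPKM (18.9 to 21.6) in the LPS library, against 9.50 FPKM (8.61 to 10.4) in the unstimulated library, a ratio of 2.13 (1.90 to 2.39). The change of 1.02 was just past the rule and was not called with a pseudocount of 5 (0.80) or after rescaling to TPM (0.81). Its locus shares 89 bases with Mrpl49, and the sources used here do not say how counting used strand. Mrpl49 was at 22.6 FPKM in the LPS library and 41.3 FPKM in the unstimulated library. Sel1l, the partner that stabilises HRD1, was at 7.51 FPKM (6.88 to 8.15) in the LPS library and 9.73 FPKM (8.97 to 10.5) in the unstimulated library. Herpud1, a membrane component of the same complex, was at 17.6 FPKM (16.3 to 19.0) in the LPS library and 22.4 FPKM (20.8 to 23.9) in the unstimulated library. Edem1, a lectin that helps to select glycoproteins for degradation, was at 14.1 FPKM (13.4 to 14.7) in the LPS library and 11.7 FPKM (11.1 to 12.3) in the unstimulated library. None of these other 3 passed the size rule.

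**Figure D3:**
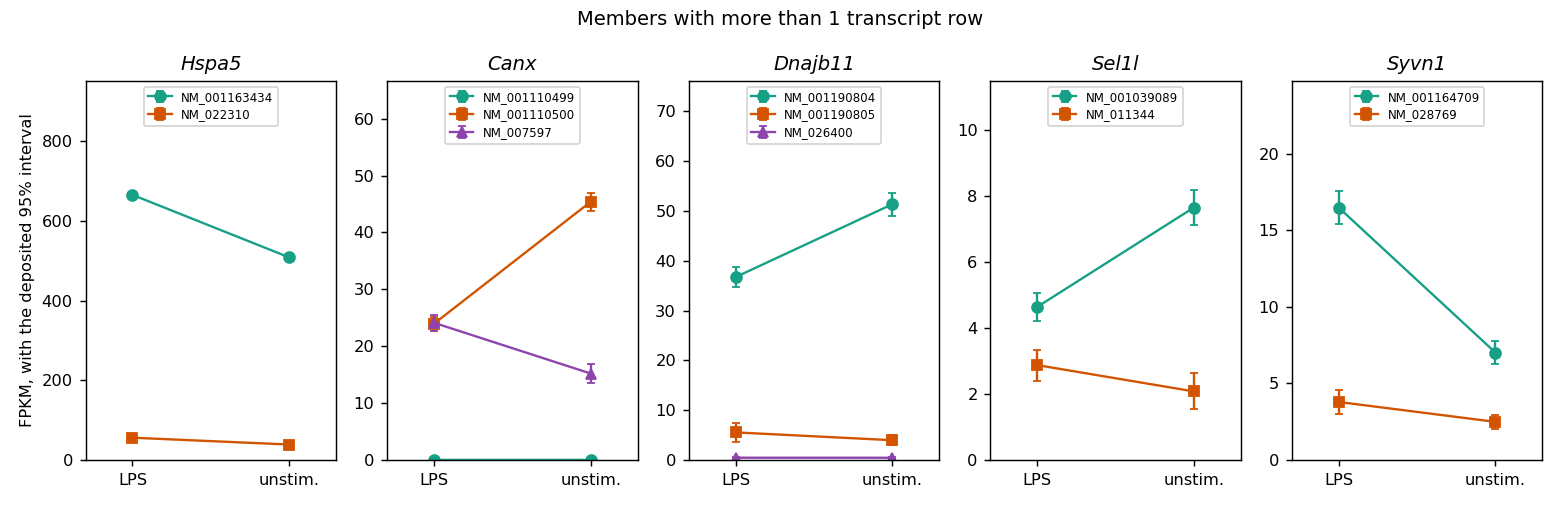
FPKM of each RefSeq transcript row, with its deposited 95% interval, in the LPS library (left) and the unstimulated library (right), for the 5 genes that hold more than 1 row; each panel has its own axis from 0. The rows of Hspa5 and Syvn1 are higher at left, the leading rows of Dnajb11 and Sel1l are lower at left, and the main rows of Canx cross.

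The rows of 5 genes allow transcripts to be compared, as Cufflinks assigned fragments between them. In Canx the rows went opposite ways. Transcript NM_001110500 was at 24.0 FPKM (22.7 to 25.2) in the LPS library and 45.4 FPKM (43.8 to 47.0) in the unstimulated library, and transcript NM_007597 was at 24.1 FPKM (22.7 to 25.5) in the LPS library and 15.2 FPKM (13.6 to 16.8) in the unstimulated library. The share of NM_007597 in the Canx total was 50.1% in the LPS library and 25.1% in the unstimulated library. Sel1l resembled it on a smaller scale: NM_001039089 was at 4.64 FPKM in the LPS library and 7.65 FPKM in the unstimulated library, with intervals apart, and NM_011344 was at 2.87 FPKM in the LPS library and 2.08 FPKM in the unstimulated library, with overlapping intervals. In Syvn1 the row that starts downstream, NM_001164709, carried most of the difference, at 16.5 FPKM (15.4 to 17.6) in the LPS library and 7.01 FPKM (6.27 to 7.76) in the unstimulated library. Values of overlapping transcripts depend on how fragments are divided between them, and no junction counts were analysed here.

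Many promoters of this arm hold a known sequence element. The ER stress element (ERSE) holds CCAAT and CCACG spaced by 9 bases, the first bound by NF-Y and the second by ATF6 or XBP1. RefSeq windows of the GRCm38.p6 assembly, from 250 bases before to 50 bases after each start, were searched on both strands, and 29 of the 35 genes had a window. Atf6, Hsf1, Hsp90aa1, Hspa8, Hyou1 and Manf had none. The ERSE was found in 8 of these 29 genes (Calr, Canx, Creld2, Dnajc3, Hsp90b1, Hspa5, Pdia6 and Syvn1), beside 0.119% of all 32851 windows. Among the 8038 counted genes with a window it was found in 12, and 8 of these 12 were members. The genes had been chosen as known ER stress genes, so the presence of the element is not independent of that choice. The variant ERSE-II, ATTGG and CCACG spaced by 1 base, was found in Dnajb11 and Herpud1, beside 0.0365% of all windows. Both elements can share a CCACG, but here they fell in different genes. The UPRE, TGACGTGG, was found in 0 of the 29 genes and in 0.676% of all windows.

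Bases before the start are shown for the genes of this arm with a motif and the largest changes, 5′ to 3′ on the strand of the gene, with the ERSE in capitals: Dnajc3 (chr14:118937682-118937931, plus strand), which was called lower, Syvn1 (chr19:6046326-6046575, plus strand), which was called higher, and Hsp90b1 (chr10:86705445-86705694, minus strand), which has 2 copies in opposite orientation.
Dnajc3: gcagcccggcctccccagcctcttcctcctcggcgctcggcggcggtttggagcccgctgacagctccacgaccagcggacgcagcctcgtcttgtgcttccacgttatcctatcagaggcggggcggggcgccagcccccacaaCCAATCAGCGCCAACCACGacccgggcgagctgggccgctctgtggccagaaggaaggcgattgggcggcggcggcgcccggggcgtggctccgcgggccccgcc
Syvn1: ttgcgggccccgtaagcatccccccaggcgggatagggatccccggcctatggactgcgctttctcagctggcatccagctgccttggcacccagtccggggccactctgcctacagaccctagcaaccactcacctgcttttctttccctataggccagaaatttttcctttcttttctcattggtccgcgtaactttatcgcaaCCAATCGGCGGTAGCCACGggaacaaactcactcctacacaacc
Hsp90b1: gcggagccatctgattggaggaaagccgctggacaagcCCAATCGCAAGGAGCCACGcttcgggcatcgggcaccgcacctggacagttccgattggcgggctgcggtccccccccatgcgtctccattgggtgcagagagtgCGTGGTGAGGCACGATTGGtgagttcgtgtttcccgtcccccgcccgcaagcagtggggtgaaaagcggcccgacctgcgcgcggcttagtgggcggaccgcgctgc

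The members with an ERSE did not share a direction. Intervals were apart in the higher direction for 3 of the 8 (Syvn1, Hspa5, Calr) and in the lower direction for 5 (Dnajc3, Hsp90b1, Creld2, Canx, Pdia6), beside 25.1% and 48.4% of all counted genes. Their changes ran from -1.07 to 1.02. After quantile normalisation the changes of Hspa5 and Calr were -0.0034 and -0.18. The 4 counted genes with an ERSE outside the set had negative changes. These were Alg12 (-0.63, intervals overlapping), and Ero1b (-0.60), Hnrnpa3 (-0.94) and Pan2 (-0.59), each with intervals apart. A match is a description of these letters, not a measured binding site. Syvn1 had 1 window, and the Syvn1 stretch shown ends at base 6046575 (GRCm38.p6). Row NM_028769 starts at base 6046576 (mm9) and was at 3.79 FPKM in the LPS library and 2.49 FPKM in the unstimulated library. Row NM_001164709, which carried most of the Syvn1 difference, starts downstream at base 6047145 (mm9). Whether the element bears on either row was not tested.

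The ATF4 and CHOP arm held a called rise, Ppp1r15a, and a called fall, Ddit3. Each was 1 of the 5 counted genes (20%, against 8.55% of all counted genes called higher and 12.5% lower). Ppp1r15a (mm9 chromosome 7, 52778288 to 52781638) was at 87.0 FPKM (84.3 to 89.6) in the LPS library, against 13.05 FPKM (11.99 to 14.1) in the unstimulated library, a ratio of 6.66 (6.11 to 7.27). Its change of 2.65 exceeded that of 97.7% of counted genes and lay between 2.35 and 2.94 in the 9 alternatives. Ddit3, the gene of the transcription factor CHOP (mm9 chromosome 10, 126727849 to 126733344), was at 4.35 FPKM (3.28 to 5.43) in the LPS library, against 14.8 FPKM (12.8 to 16.8) in the unstimulated library. The ratio was 0.294 (0.222 to 0.389), and the change of -1.56 lay between -1.87 and -1.08 in the 9 alternatives. The Ddit3 locus shares 68 bases with Mars1, whose larger row was at 15.8 FPKM in the LPS library and 16.6 FPKM in the unstimulated library.

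The transcription factor gene upstream of these targets, Atf4, was nearly level. It was at 248 FPKM (242 to 253) in the LPS library and 239 FPKM (233 to 244) in the unstimulated library, with overlapping intervals, and its change of 0.05 turned to -0.20 on the TPM scale and to -0.27 under quantile normalisation. ATF4 protein is controlled mainly at translation, which these data do not measure. Asns, the asparagine synthetase gene, was at 72.7 FPKM (70.0 to 75.4) in the LPS library and 49.6 FPKM (47.3 to 51.9) in the unstimulated library, a ratio of 1.47. Trib3, a pseudokinase gene that is a target of ATF4 and CHOP, was at 8.03 FPKM (7.16 to 8.89) in the LPS library and 5.74 FPKM (4.99 to 6.49) in the unstimulated library, a ratio of 1.398. Neither passed the size rule. Chac1, which encodes an enzyme that degrades glutathione, was at 0.572 FPKM in the LPS library and 0.667 FPKM in the unstimulated library. These rest on 18 and 20 implied fragments, and the ratio of 0.857 had an exact binomial interval of 0.427 to 1.71. The median change of the 5 counted genes of this arm was 0.42, and it was 0.24 with Chac1 included.

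ATF4 binds with C/EBP partners to the C/EBP-ATF response element (CARE), searched here as TGATGNAA. It was found in 4 of the 29 genes (Asns, Chac1, Trib3 and Herpud1), beside 3.97% of all windows, and of the 6 genes of this arm the other 3 had no match in the window. The bases around it are shown for the members with the largest changes among those with a match, with the element in capitals: Asns (chr6:7693210-7693459, minus strand) before the start, and Trib3 (chr2:152344028-152344057, minus strand) as 30 bases that begin just after the start, where the element lies on the opposite strand.
Asns: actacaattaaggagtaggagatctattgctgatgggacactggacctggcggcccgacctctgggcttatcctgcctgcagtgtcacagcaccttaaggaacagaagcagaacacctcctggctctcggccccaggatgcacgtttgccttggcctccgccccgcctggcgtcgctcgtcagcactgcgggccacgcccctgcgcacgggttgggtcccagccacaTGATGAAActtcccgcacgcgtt
Trib3: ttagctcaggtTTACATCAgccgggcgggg

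Beyond these 6 genes, a list of 34 further measured targets of ATF4 held 26 counted genes. Of these, 6 were called higher (23.1%, against 8.55% of all counted genes) and 2 lower (7.69%, against 12.5%). Intervals were apart in the higher direction for 12 (46.2%, against 25.1%) and in the lower direction for 8 (30.8%, against 48.4%). The median change was 0.00, beside -0.24 over all counted genes. On the TPM scale 6 were called higher and 5 lower (median -0.23), with median scaling 8 and 1 (median 0.27), and 3 and 1 with a pseudocount of 5. Nupr1, a stress-induced nuclear protein gene, had the largest change, at 254 FPKM (244 to 265) in the LPS library and 20.6 FPKM (17.6 to 23.6) in the unstimulated library. Slc7a11, the cystine transporter gene, was at 4.85 FPKM in the LPS library and 0.288 FPKM in the unstimulated library, and Gdf15, a stress cytokine gene, at 7.44 FPKM in the LPS library and 1.34 FPKM in the unstimulated library. Slc7a11 and Gdf15 were not called with a pseudocount of 5 (0.90 and 0.97), and Slc7a11 lies below a filter at 5 FPKM. Ddit4, an inhibitor of mTORC1 signalling, fell to 0.702 FPKM (0.416 to 0.989) in the LPS library, against 9.31 FPKM (8.24 to 10.4) in the unstimulated library. Vegfa, a vascular growth factor gene, fell to 17.3 FPKM in the LPS library, against 37.2 FPKM in the unstimulated library, and was not called with a pseudocount of 5 or after median scaling. Several of these genes have other known inducers, such as NRF2 for Slc7a11.

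Genes of eIF2 phosphorylation other than PERK and GADD34 were read from a list of 19, all counted. Of these, 1 was called higher (5.26%, against 8.55% of all counted genes) and 1 lower (5.26%, against 12.5%). Intervals were apart in the higher direction for 6 (31.6%, against 25.1%) and in the lower direction for 8 (42.1%, against 48.4%). Eif2ak2, the gene of the double-stranded RNA sensor PKR and an interferon-stimulated gene, rose to 24.2 FPKM (23.2 to 25.2) in the LPS library, against 4.72 FPKM (4.26 to 5.17) in the unstimulated library. Eif2ak4, the gene of the amino acid sensor GCN2, fell to 1.68 FPKM (1.353 to 2.00) in the LPS library, against 7.29 FPKM (6.61 to 7.97) in the unstimulated library. The change of Eif2ak4 was -1.63, and it was not called with a pseudocount of 5 (-0.88). Eif2ak1, the gene of the heme-regulated kinase HRI, had overlapping intervals, at 13.9 FPKM in the LPS library and 12.95 FPKM in the unstimulated library. Transcripts of the eIF2 kinases thus differed in direction, with PKR higher and PERK and GCN2 lower in the LPS library.

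No gene of the heat shock arm was called in either direction, beside 8.55% of all counted genes called higher and 12.5% called lower. The median change of the 5 counted genes was -0.11, beside -0.24 over all counted genes, and it was 0.23 with Hspa1a and Hspa1b included. Hsf1, the gene of the transcription factor that drives the response, was at 14.4 FPKM (13.2 to 15.6) in the LPS library and 15.6 FPKM (14.4 to 16.9) in the unstimulated library, with overlapping intervals. Hspa8, the constitutive HSP70, was the most abundant of the 35 genes, at 2202 FPKM (2188 to 2216) in the LPS library and 1591 FPKM (1578 to 1603) in the unstimulated library, a ratio of 1.38. Hsp90aa1, the inducible HSP90, was at 153 FPKM (149 to 156) in the LPS library and 179 FPKM (176 to 183) in the unstimulated library. Hsph1, an HSP110 that recharges HSP70, was at 33.8 FPKM (32.4 to 35.1) in the LPS library and 39.6 FPKM (38.1 to 41.1) in the unstimulated library. Dnajb1, the J protein that works with HSP70, was at 18.8 FPKM (17.6 to 20.1) in the LPS library and 15.95 FPKM (14.8 to 17.1) in the unstimulated library. The signs of Hsf1, Hsph1 and Hsp90aa1 turned positive after median scaling and that of Dnajb1 turned negative after rescaling to TPM.

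The stress-inducible HSP70 genes, Hspa1a and Hspa1b, were barely detected yet differed between the libraries. Hspa1b was at 0.732 FPKM (0.511 to 0.952) in the LPS library and 0.0873 FPKM (0.00922 to 0.165) in the unstimulated library, on 44 and 5 implied fragments, a ratio of 8.38 with an exact binomial interval of 3.33 to 27.1. Hspa1a was at 0.401 FPKM (0.237 to 0.565) in the LPS library and 0.0526 FPKM (0 to 0.113) in the unstimulated library, on 24 and 3 implied fragments, a ratio of 7.62 with an exact binomial interval of 2.31 to 39.5. The deposited intervals were apart for each gene. The genes lie near each other on chromosome 17 (mm9, 35093374 to 35096183 for Hspa1b and 35106304 to 35109101 for Hspa1a) and have near-identical sequences, so fragments of one can be assigned to the other and the pair is best read as a single signal. They passed the size rule only with a pseudocount of 0.1 (2.15 for Hspa1b and 1.71 for Hspa1a), and in neither library did they reach 1 FPKM.

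HSF1 binds arrays of GAA and TTC units. A run of 3 such units in alternation, with 2 bases between units, was searched as the heat shock element (HSE) and found in 1 of the 29 genes, Hsph1, beside 0.603% of all windows. Of the heat shock arm, Hsf1, Hsp90aa1 and Hspa8 had no window. Only exact units were searched, so a gene without a match may still hold an imperfect element. The Hsph1 match is shown in capitals within 30 bases around it, which lie after the start (chr5:149636279-149636308, minus strand).
Hsph1: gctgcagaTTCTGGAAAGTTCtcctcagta

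Of 44 further heat shock genes measured, 38 were counted. Of these, 4 were called higher (10.5%, against 8.55% of all counted genes) and 2 lower (5.26%, against 12.5%). Intervals were apart in the higher direction for 19 (50%, against 25.1%) and in the lower direction for 10 (26.3%, against 48.4%). On the TPM scale 3 were called higher and 5 lower, and with quantile normalisation 3 and 3. The median change was 0.15, which turned to -0.09 on the TPM scale and to -0.02 with quantile normalisation. Dnajb4, a cytosolic J protein gene, was at 16.5 FPKM (15.4 to 17.7) in the LPS library and 5.65 FPKM (4.96 to 6.34) in the unstimulated library. Cct3, a subunit of the chaperonin that folds actin and tubulin, was at 450 FPKM (444 to 457) in the LPS library and 175 FPKM (171 to 179) in the unstimulated library. The HSP70 co-chaperone gene Bag2 fell to 15.98 FPKM (14.7 to 17.3) in the LPS library, against 57.2 FPKM (54.7 to 59.8) in the unstimulated library, and Hspa14, a ribosome-associated HSP70, fell to 13.5 FPKM in the LPS library, against 36.7 FPKM in the unstimulated library. These 4 calls held in each of the 9 alternatives run.

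Within the ER, ATF4 and CHOP, and heat shock arms, changes of both signs were found. The median change was -0.62 for the transducers, -0.33 for the ER chaperone and ERAD genes, 0.42 for the counted ATF4 and CHOP genes and -0.11 for the counted heat shock genes, beside -0.24 over all counted genes. No difference between arms was tested, since genes are not replicates of a condition.

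**Figure D4:**
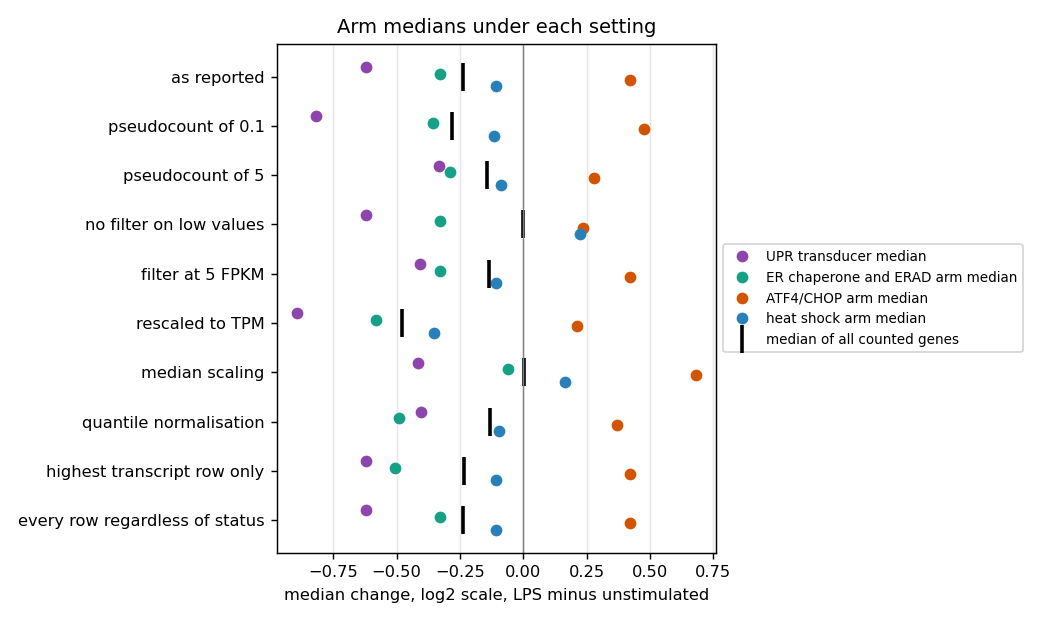
Median change of the counted genes of each arm (points) and of all counted genes (black bars) on the deposited FPKM and under the 9 alternatives. The ATF4/CHOP median is above 0 in each row, between 0.21 and 0.68, and the transducer median below 0 in each row, between -0.89 and -0.33, while the heat shock median lies on either side of 0.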

How the data were processed

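The authors deposited 1 table per library with FPKM values and a lower and an upper bound for each of 28246 RefSeq transcript rows. The tables come from Cufflinks on build mm9, per the submitters' processing notes; its version, the aligner and the use of strand in counting were not given in the sources used here. Per the labels' protocols, total RNA went into strand-specific libraries sequenced as 76-base reads.

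Symbols came from RefSeq (GRCm38.p6, names only) and matched 97.6% of rows; the others were kept under their own identifiers. Rows without the status OK in both libraries (391) and rows of small RNA genes (693 more) were left out, rows of a symbol were summed and half-widths were combined in quadrature. All rows of the 35 genes had the status OK. Starts were read as 0-based and are printed 1-based: the span then equalled the RefSeq gene length for 6873 of 8758 rows of genes with 1 transcript, against 314 otherwise. Ratios are LPS over unstimulated, with intervals from both deposited intervals. Fragments were implied by reading a half-width as 2 standard deviations of a count; 68.9% of 5159 rows with up to 50 such fragments in the LPS library and 67.5% of 5069 in the unstimulated library came within 0.05 of a whole number. Exact intervals (Clopper-Pearson, 95%) cover counting error only.

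The members, their arms and the companion lists were chosen with earlier results of these data known. Named companion genes are up to 3 largest rises and 3 largest falls per list past the size rule; 1 gene that this rule selects is not reported here. The rules ran in Python 3.11.15 with pandas 2.3.3 and SciPy 1.17.1. The size rule was tested on the unstimulated values with known changes and counting noise added, which leaves out other differences between libraries. Alternatives were pseudocounts of 0.1 and 5, no filter, a filter at 5 FPKM, TPM, median scaling, quantile normalisation, the highest transcript row only and every row regardless of status.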

Additional observations from a re-analysis of the deposited data

How the results depend on the processing

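With 1 library per condition no replicate could be left out, and no paired analysis was possible because there are no replicates. Rescaling to TPM, median scaling and quantile normalisation moved the median change of all counted genes by -0.24, 0.24 and 0.11, and the share of higher genes among those called was 40.7% on the deposited FPKM, 24.5%, 59.4% and 53.0% after these, and 61.9% with a pseudocount of 5. Over all counted genes 858 were called higher and 1250 lower, against 983 and 2064 with a pseudocount of 0.1, 577 and 355 with a pseudocount of 5, 745 and 2296 on the TPM scale, 1146 and 784 with median scaling, and 950 and 843 with quantile normalisation. Members called higher numbered 2, but 1 with a pseudocount of 5 and 1 after TPM; members called lower numbered 5, but 2 with a pseudocount of 5, 3 after median scaling, 4 with a filter at 5 FPKM, which leaves Eif2ak3 uncounted, and 7 after TPM. Ppp1r15a, Ddit3 and Dnajb9 kept their calls in all 9 alternatives. The transducer median was -0.82 and -0.33 with pseudocounts of 0.1 and 5, -0.41 with a filter at 5 FPKM, -0.89 after TPM, -0.42 after median scaling and -0.41 after quantile normalisation. The ER chaperone and ERAD median was -0.58 after TPM, -0.061 after median scaling, -0.49 after quantile normalisation and -0.50 with the highest row only. The ATF4 and CHOP median was 0.28 with a pseudocount of 5, 0.24 without a filter, 0.21 after TPM and 0.68 after median scaling. The heat shock median was 0.23 without a filter, -0.35 after TPM and 0.17 after median scaling. The filters change which genes enter a median, and TPM and median scaling apply the same factor to all values of a library. Otherwise the cause was not tested.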

Other observations

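Lists of neighbouring processes gave few calls. Of 53 counted further genes of ER folding and ERAD, the size rule called 0 higher (against 8.55% of all counted genes) and 1 lower (1.89%, against 12.5%). Their median change was -0.02. It was -0.25 on the TPM scale with 2 called lower, 0.25 with median scaling with 1 called higher, and -0.12 with quantile normalisation. Intervals were apart in the higher direction for 15 (28.3%, against 25.1%) and in the lower direction for 20 (37.7%, against 48.4%). The gene called lower on the deposited FPKM was Nucb2, a calcium-binding protein gene, at 2.75 FPKM (1.62 to 3.88) in the LPS library and 7.22 FPKM (5.88 to 8.57) in the unstimulated library. Nucb2 was not called with a pseudocount of 5, after median scaling or after quantile normalisation. Of 39 counted genes of ER translocation, signal peptide cleavage, glycan transfer and exit, 0 were called, beside 8.55% of all counted genes called higher and 12.5% lower. Their median was -0.24, beside -0.24 over all counted genes. The median was 0.04 with median scaling, -0.49 on the TPM scale with 3 called lower, and -0.38 with quantile normalisation with 1 called lower. Deposited intervals were apart in the lower direction for 24 of these 39 (61.5%, against 48.4% of all counted genes) and in the higher direction for 9 (23.1%, against 25.1%).

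Of 14 counted mitochondrial chaperone and protease genes 0 were called (median -0.35), beside 8.55% of all counted genes called higher and 12.5% lower. Intervals were apart in the lower direction for 10 (71.4%, against 48.4% of all counted genes) and in the higher direction for 2 (14.3%, against 25.1%). On the TPM scale 3 of the 14 were called lower, and with quantile normalisation 2. Of 20 cytosolic aminoacyl-tRNA synthetase genes, several of which ATF4 drives, the size rule called 0 lower (against 12.5% of all counted genes). It called 1 higher (5%, against 8.55%), and the median was -0.03. Intervals were apart in the lower direction for 6 (30%, against 48.4%) and in the higher direction for 7 (35%, against 25.1%). The gene called higher was Wars, the tryptophanyl-tRNA synthetase gene, also interferon-induced, at 56.9 FPKM (54.5 to 59.3) in the LPS library and 25.5 FPKM (23.6 to 27.4) in the unstimulated library. Wars was not called after rescaling to TPM or with the highest row only. These lists were not tested against each other.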
